A study of Homo sapiens with 6 samples.

Results

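HSMAR1, HSMAR2, MADE1 and MADE2 are the human repeat names of the mariner branch of DNA transposons that carry those prefixes. They were taken by name from a table of chromatin-bound RNA, and all 4 were present among its 15641 repeat entries. RNA was sequenced from chromatin fractions of the established human embryonic stem cell line H9, with 3 libraries labelled naïve (RSeT medium) and 3 labelled primed. The growth protocol gives RSeT culture for all 6 libraries, so the state rests on the treatment label alone, and no separate cultures are named. P-values therefore measure only how these 6 libraries vary, part of which may be technical. The entries are repeats only, so 0 of the pluripotency genes looked for could be read. The retroviral entries known for transcription in human pluripotent cells, HERVH-int, LTR7, HERVK-int and LTR5_Hs, were counted in all 6 libraries. In the main fit, set out below, their log2 changes, naive minus primed, were 1.14, 0.87, 3.62 and 1.59 in that order. The edgeR adjusted p-values were 0.0106, 0.0156, 7.88e-05 and 0.00443.

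Mariner elements are cut-and-paste transposons: a full copy holds 1 gene for a transposase, the enzyme that binds the inverted repeats at the element's ends and moves it. HSMAR1 and HSMAR2 are the full-length families that spread in ancestors of living primates, and their human copies no longer move. A single HSMAR1 transposase was kept as part of SETMAR, a gene that joins it to a histone methyltransferase domain and lies at chr3:4303304-4317567 on the plus strand (GRCh38, GENCODE release 29). MADE1 is a short element with no gene of its own, built from little more than the 2 inverted ends of HSMAR1, and MADE2 is a further short mariner-derived element. Because a MADE1 copy is almost its own reverse complement, its RNA can fold into a hairpin, and many genes of the miR-548 microRNA family arose from such copies.

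The files used here hold no sequence of the 4 elements, so this fold is shown by miR-548 hairpins from RefSeq (GRCh38.p14). These microRNAs were not measured. The set used here holds 5 such hairpins, and the 2 with the longest inverted repeats are printed. The repeats of the other 3 (MIR548AT, MIR548AR and MIR548AS) are 12, 9 and 7 bases long. Capitals mark the longest stretch whose exact reverse complement recurs later in the same hairpin, and both arms are capitalised.
MIR548M: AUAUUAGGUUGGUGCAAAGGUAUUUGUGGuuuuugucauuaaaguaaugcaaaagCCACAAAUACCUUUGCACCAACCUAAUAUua
MIR548AW: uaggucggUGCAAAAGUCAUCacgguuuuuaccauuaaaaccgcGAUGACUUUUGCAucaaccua
The MIR548M hairpin lies at chrX:95063141-95063226 on the minus strand and has arms of 29 bases with 26 bases between them. MIR548AW lies at chr9:132945707-132945771 on the plus strand and has arms of 13 bases. The 55 mature miR-548 names in the table fall into 29 seeds (bases 2 to 8). The commonest seed is shared by 11 names, and the next by 7. One mature sequence of each is printed with its seed in capitals, and both come from MIR548AQ on the minus strand of chromosome 3.
hsa-miR-548aq-5p: gAAAGUAAuugcuguuuuugcc
hsa-miR-548aq-3p: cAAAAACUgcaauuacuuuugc
The stretch AAAAGUAA or its reverse complement UUACUUUU was present in 31 of the 55 mature miR-548 names, against 2 of 2315 other mature microRNAs, or 1.39% of all mature names together. This stretch holds the commonest seed of the same names, so the counts describe the family and are no test of it.

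Depth differed widely. Total counts were between 9748202 and 17791046 in the naive libraries, and 7192242, 118793 and 8106871 in the 3 primed ones, in order of library number. The shallow one is primed library 2, where 3 counts correspond to 25.3 CPM (counts scaled to a common library total). Alpha satellite, the repeat of centromeres, took between 25.3% and 42.9% of counts in the naive libraries, and between 0.221% and 0.625% in the primed libraries. Ribosomal RNA took between 0.169% and 6.08% in the naive libraries, and between 4.04% and 17.7% in the primed libraries. Shares of all counts were therefore set against shares without alpha satellite and ribosomal RNA, and levels are given as CPM scaled by TMM factors, which equalise the bulk of the entries.

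The 4 entries together held 10446, 14103 and 17319 counts in naive libraries 1 to 3, against 7831, 228 and 10761 in primed libraries 1 to 3. This was 0.107%, 0.0793% and 0.104% of all counts in the naive libraries, and 0.109%, 0.192% and 0.133% in the primed libraries. In primed library 2 this share had a 95% Wilson interval of 0.169% to 0.218%, for counting error only. Outside alpha satellite and ribosomal RNA the share was 0.156% ± 0.00242 for naive and 0.160% ± 0.0366 for primed libraries (SD, n = 3 each). On that base the naive libraries lay within 0.154% and 0.159%, and primed libraries 1 to 3 held 0.133%, 0.201% and 0.145%. The groups overlapped through the shallow primed library 2 alone, while primed libraries 1 and 3 lay below every naive one. HSMAR2 was the most counted entry in every library, with 42.1% ± 4.197 of the mariner counts in naive and 42.5% ± 4.70 in primed libraries. MADE1 followed with 25.1% ± 1.75 in naive and 27.3% ± 1.25 in primed libraries. These are shares of reads, not levels per length, since element lengths are not in the table.

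The question was whether chromatin of naive cells carries more or less mariner RNA than that of primed cells. With TMM scaling HSMAR1 was 1.33-fold the primed level in naive cells (95% interval 1.09 to 1.62), and MADE1 1.03-fold (0.844 to 1.25), neither past the threshold. With library size alone the HSMAR1 log2 change had the other sign, at -0.22. With TMM factors 0 of the 4 entries passed the test in either direction, while 12.7% of all 3219 entries tested were called (4.94% higher and 7.77% lower in naive cells; edgeR quasi-likelihood test, p adjusted by Benjamini-Hochberg and under 0.05). DESeq2 called 0 of the 4 as well. Before adjustment, HSMAR1 was the single mariner entry under 0.05, by edgeR with TMM factors and by DESeq2 with its own size factors (DESeq2 adjusted p = 0.162). In bulk RNA a difference in the number of cells and a difference in RNA per cell cannot be told apart. The table adds all copies of a name, so RNA of an element's own and RNA of a longer transcript running through a copy are counted alike.

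HSMAR1, the family behind the SETMAR transposase domain, had 1885, 2239 and 2766 counts in naive libraries 1 to 3, against 1254, 24 and 1562 in primed libraries 1 to 3. Scaled, this was 214, 201 and 194 CPM in the naive libraries, against 159, 134 and 156 CPM in the primed libraries. On this scale every naive library stood above every primed one. How many of all entries separate in this way was not counted, but 1017 of the 3219 tested had an unadjusted edgeR p under 0.05. As a share of all counts the groups overlapped, at 193, 126 and 166 unscaled CPM in the naive libraries, and 174, 202 and 193 in the primed libraries. With alpha satellite and ribosomal RNA taken out of the totals they did not, at 282, 244 and 253 CPM in the naive libraries, against 213, 212 and 210.1 CPM in the primed libraries. TMM-scaled means were 203 ± 10.4 CPM for naive and 149 ± 13.3 CPM for primed libraries (SD, n = 3 each), a log2 change of 0.41 ± 0.13 (SE) with a 95% interval of 0.13 to 0.69. The change did not pass after adjustment over all entries (edgeR adjusted p = 0.0560). The 24 counts in primed library 2 carry an exact 95% Poisson interval of 15.4 to 35.7 counts. Without that library the log2 change was 0.38 (edgeR adjusted p = 0.0574). With simple repeats left out it was 0.18 (adjusted p = 0.317). No source used here says whether reads from SETMAR itself enter the HSMAR1 entry.

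HSMAR2, the other full-length family, had 3897, 6263 and 7747 counts in naive libraries 1 to 3, against 3054, 109 and 4363 in primed libraries 1 to 3. Its scaled levels were 443, 561 and 544 CPM in the naive libraries, and 386, 609.7 and 435 CPM in the primed libraries. The groups overlapped: naive library 1 stood near primed library 3, and primed library 2 was the highest of all. The means of 516 ± 63.7 CPM for naive and 477 ± 118 CPM for primed libraries (SD, n = 3 each) gave a log2 change of 0.15 ± 0.17 (SE; 95% interval -0.23 to 0.53; edgeR adjusted p = 0.592). HSMAR2 had the widest spread of the 4 entries in both groups. Without primed library 2 its log2 change was 0.34 (edgeR adjusted p = 0.121), and without primed library 1 it was -0.01 (adjusted p = 0.993).

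MADE1, the short HSMAR1-derived element whose fold the hairpins show, had 2833, 3411 and 4156 counts in naive libraries 1 to 3, against 2167, 59 and 3043 in primed libraries 1 to 3. Scaled, the naive libraries held 322, 306 and 292 CPM, against 274, 330.0 and 303 CPM in the primed libraries. The primed values enclosed the naive ones. The means were 307 ± 15.3 CPM for naive and 302 ± 28.0 CPM for primed libraries (SD, n = 3 each). The log2 change was 0.04 ± 0.13 (SE), with a 95% interval of -0.24 to 0.32 (edgeR adjusted p = 0.873). Primed library 2 set the upper end, and its 59 counts carry an exact 95% Poisson interval of 44.9 to 76.1 counts. Without that library the log2 change was 0.10 (edgeR adjusted p = 0.588).

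MADE2 had 1831, 2190 and 2650 counts in naive libraries 1 to 3, against 1356, 36 and 1793 in primed libraries 1 to 3. Its levels were 208, 196 and 186 CPM in the naive libraries, and 172, 201 and 179 CPM in the primed libraries. The groups overlapped through primed library 2. The log2 change was 0.12 ± 0.13 (SE; 95% interval -0.16 to 0.41; edgeR adjusted p = 0.538). For MADE1, MADE2 and HSMAR2 the intervals reached both sides of 0, so a change of either sign within them was not excluded at this depth.

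**Figure D1:**
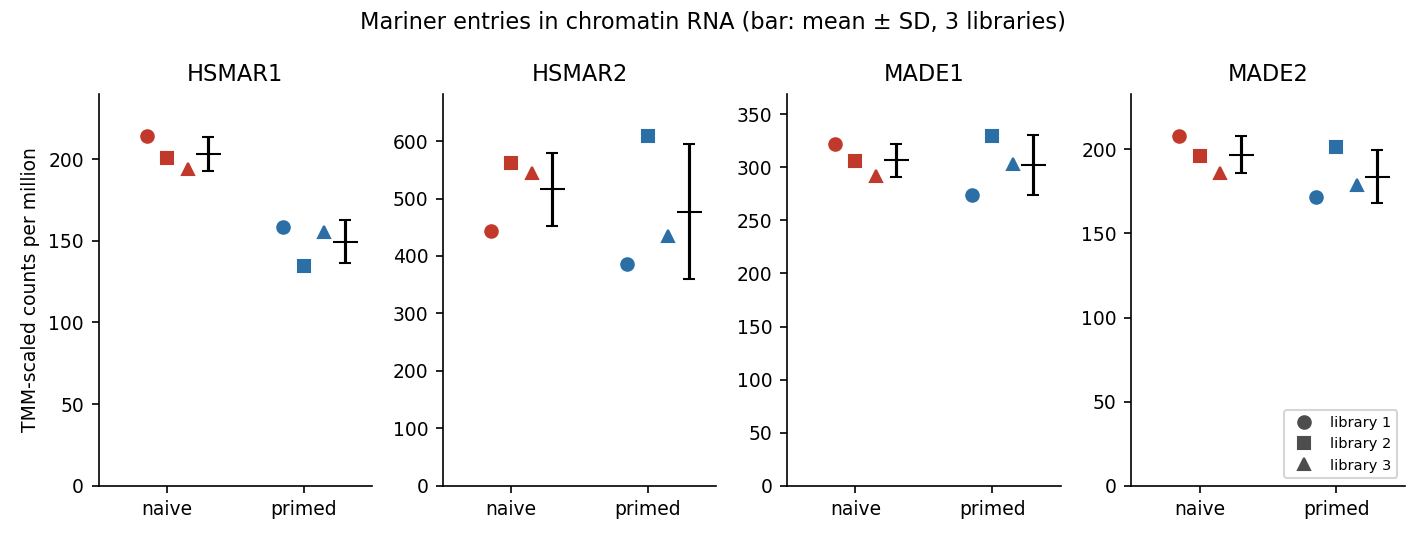
TMM-scaled CPM (y axis, from 0) of each mariner entry in naive (left, red) and primed (right, blue) libraries. Each point is a library, with its shape giving the library number, and the bar is the mean ± SD of 3 libraries. HSMAR1 sits between 194 and 214 in naive and between 134 and 159 in primed libraries, while the groups overlap for HSMAR2, MADE1 and MADE2.

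The ratio of 2 entries within a library does not depend on its depth or scaling factor, and 6 such pairs were compared. HSMAR1 was counted 0.665, 0.656 and 0.666 times as often as MADE1 in naive libraries 1 to 3, against 0.579, 0.407 and 0.513 times in primed libraries 1 to 3. The naive ratios were nearly equal and all above the primed ones. The mean ratio was 0.662 ± 0.00523 for naive and 0.4996 ± 0.0868 for primed libraries (SD, n = 3 each), a log2 difference of 0.42. The exact permutation test, two-sided with 3 libraries a group, gave p = 0.1, the smallest it can give, and 0.2 after Benjamini-Hochberg adjustment over the 6 pairs, so this design cannot reach 0.05. The shallow primed library 2 gave the lowest ratio. Its exact 95% interval of 0.242 to 0.664 includes the ratio of naive library 2. It ends just below the ratios of naive libraries 1 and 3, but overlaps their own exact intervals (0.627 to 0.706 and 0.634 to 0.699). Without primed library 2 the log2 difference was 0.28, and the 2 deep primed libraries remained below the naive libraries.

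Against MADE2, HSMAR1 stood at 1.03, 1.02 and 1.04 in naive libraries 1 to 3, and at 0.925, 0.667 and 0.871 in primed libraries 1 to 3. By raw counts HSMAR1 thus slightly exceeded MADE2 in each naive library and was counted less often than MADE2 in each primed one. Exact intervals for counting error included 1 in naive libraries 1 to 3 (0.965 to 1.10, 0.963 to 1.08 and 0.989 to 1.10). The interval of primed library 2 also included 1 (0.380 to 1.15). Those of primed libraries 1 (0.856 to 0.999) and 3 (0.814 to 0.933) lay below 1. Only that of primed library 3 lay below every naive interval. The log2 difference was 0.34 (exact permutation p = 0.1, adjusted 0.2), and 0.20 without primed library 2. The 2 short elements kept close to each other: MADE1 was counted 1.55, 1.56 and 1.57 times as often as MADE2 in naive libraries, against 1.60, 1.64 and 1.70 times in primed libraries. The ratios of that pair did not overlap between groups either, and its log2 difference was -0.08 (exact permutation p = 0.1, adjusted 0.2). Its exact intervals for counting error did overlap. They were 1.46 to 1.64, 1.48 to 1.64 and 1.49 to 1.65 in naive libraries 1 to 3. In primed libraries 1 to 3 they were 1.49 to 1.71, 1.06 to 2.55 and 1.60 to 1.80.

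The 3 ratios with HSMAR2 did not separate the groups. HSMAR2 was counted 1.38, 1.84 and 1.86 times as often as MADE1 in naive libraries 1 to 3, and 1.41, 1.85 and 1.43 times in primed libraries 1 to 3. Naive library 1 thus lay beside primed libraries 1 and 3, and naive libraries 2 and 3 lay beside primed library 2, whose exact 95% interval was 1.33 to 2.58. The log2 difference was 0.11 (exact permutation p = 0.9, adjusted 1). HSMAR2 against MADE2 gave 0.03 (exact permutation p = 1, adjusted 1), and its sign turned when single libraries were left out. HSMAR1 against HSMAR2 gave 0.31 (exact permutation p = 0.6, adjusted 0.9), which became 0.04 without primed library 2 and 0.16 without naive library 1.

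**Figure D2:**
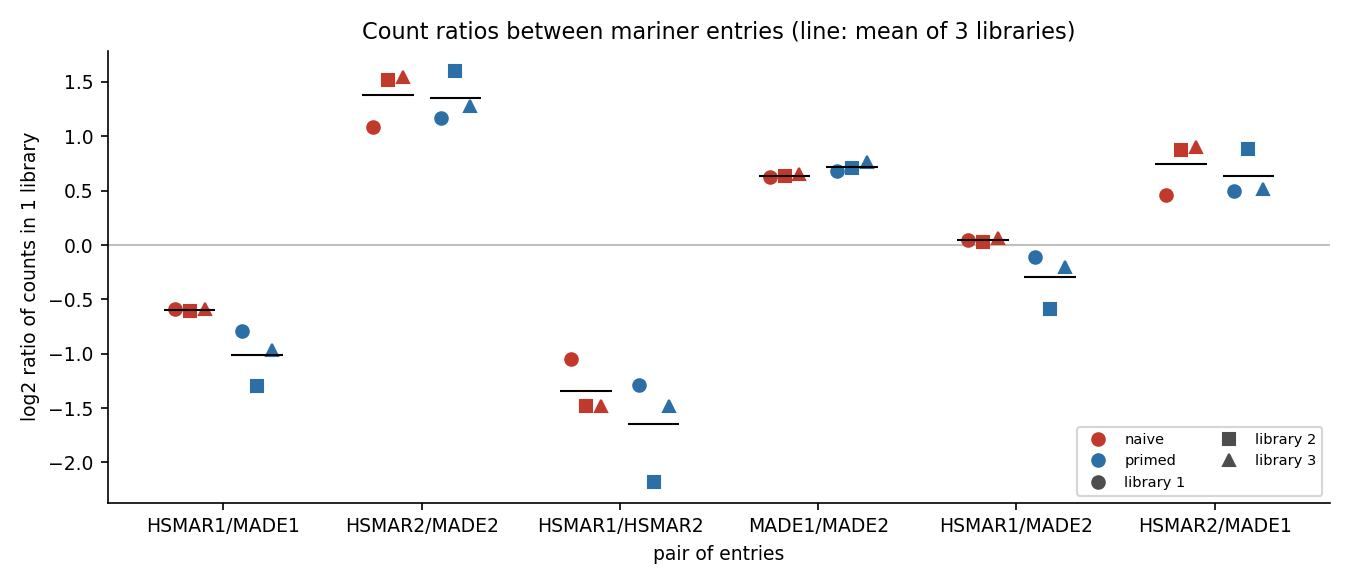
Log2 ratio of the counts of 2 mariner entries in the same library (y axis) for the 6 pairs (x axis), with naive libraries in red at the left of each pair and primed libraries in blue at the right. Shapes give the library number and lines the group means. The groups are apart for HSMAR1/MADE1, HSMAR1/MADE2 and MADE1/MADE2, and overlap for the 3 pairs with HSMAR2.

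Other DNA transposons, in lists drawn from element names, give the scale of these changes. The lists leave out some tested DNA entries, such as X26_DNA and X4b_DNA. Of 194 entries tested in 5 lists of DNA transposons, mariner included, 6 rose, 0 fell and 188 did not pass by edgeR, with a median log2 change of 0.15. Among them 28 had an unadjusted p under 0.05, 2 of these below 0, and DESeq2 called 3 higher and 0 lower. With TMM factors this is 3.09% called, against 11.5% of the 1265 named repeats tested (10.4% higher and 1.19% lower), whose median was 0.21. The mariner median was 0.14. With library size alone 1 of the 194 rose and 29 fell, and without primed library 1 the count was 1 higher and 0 lower. Without naive library 2 it was 2 higher and 0 lower, as it was without naive library 3, and with simple repeats left out 1 rose and 0 fell. Upper-quartile factors gave 3 higher and 0 lower. Calls below 0 also came in other settings, such as without a filter (4 higher and 2 lower) and without naive library 1 (8 higher and 2 lower). Of 60 Tigger entries, the pogo-like relatives in the same Tc1/mariner superfamily, 1 rose (Tigger6, log2 0.79 ± 0.18 SE, edgeR adjusted p = 0.0238), with a median of 0.18. The Tigger6 call was lost without primed library 1 (log2 0.59, adjusted p = 0.199), without naive library 2 (0.80, adjusted p = 0.0633), with simple repeats left out (0.60, adjusted p = 0.0578), and with library size alone (0.16, adjusted p = 0.700). Of the 9 Kanga, MARNA and MER104 entries, 0 were called by edgeR and 0 by DESeq2, and 1 had an unadjusted p under 0.05 (Kanga1a); their median was 0.12. MARNA, an older mariner element, had a log2 change of -0.05 (edgeR adjusted p = 0.798). Of 116 hAT entries, a separate superfamily, 5 rose, led by Zaphod4a at 1.29 ± 0.18 (SE; edgeR adjusted p = 0.00443), with a median of 0.14.

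By size of log2 change, HSMAR1 was number 18 of the 194 listed DNA transposon entries from the top, HSMAR2 number 94, MADE2 number 108 and MADE1 number 149. Among the 1265 named repeats, 73.8% had a lower log2 change than HSMAR1, and 25.8% a lower one than MADE1. HSMAR1 counts equalled 0.888%, 0.859% and 0.842% of the summed Tigger counts in naive libraries 1 to 3, against 0.813%, 0.681% and 0.718% in primed libraries 1 to 3. They equalled 0.539%, 0.518% and 0.496% of the summed hAT counts in the naive libraries, against 0.436%, 0.407% and 0.400% in the primed libraries. The groups did not overlap on either base, though how many other entries separate in this way was not counted. MADE1 had the opposite order against Tigger, with 1.33%, 1.31% and 1.26% in the naive libraries and 1.40%, 1.67% and 1.40% in the primed libraries. Against each of the other lists (hAT, Kanga with MARNA, and piggyBac) the MADE1 groups overlapped. No p-value is given for these shares, which describe the libraries.

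**Figure D3:**
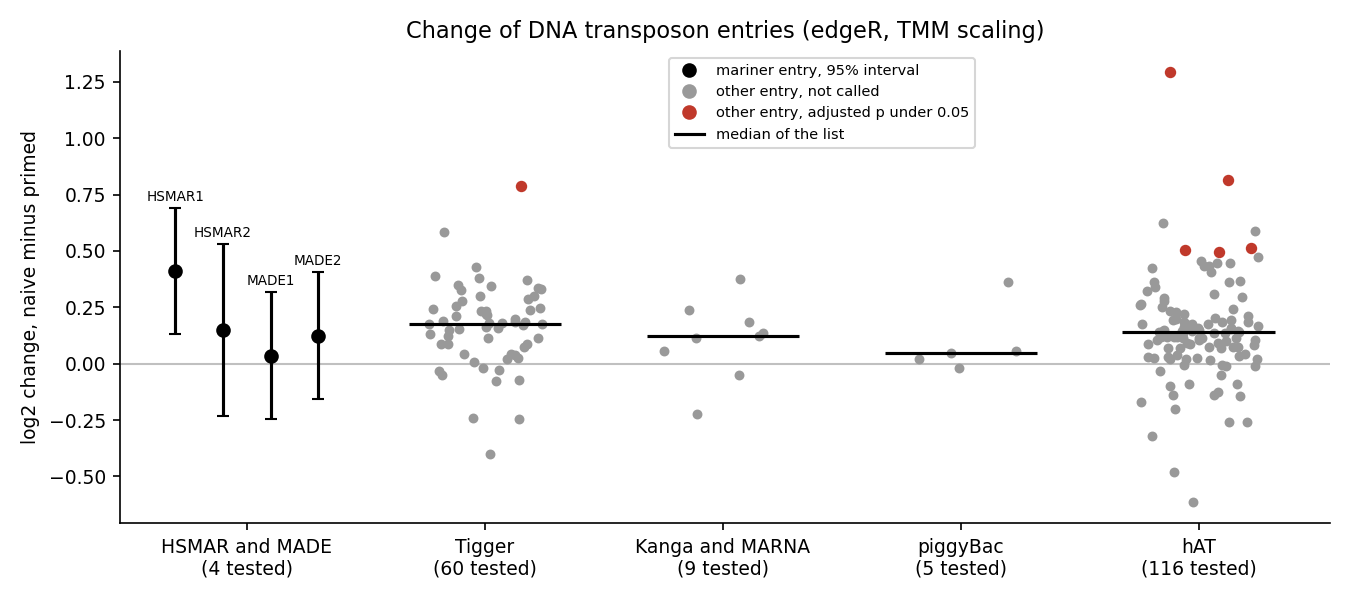
Log2 change, naive minus primed (y axis), of DNA transposon entries by list (x axis). The 4 mariner entries are black, with 95% intervals, and every other tested entry of the 5 lists is a point. Red points have an adjusted p under 0.05 and lines are list medians. The HSMAR1 interval lies above 0 and the other 3 mariner intervals cross it, with MADE1 at 0.04 nearest to 0.

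The sign of the mariner changes depended on the scaling. With library size alone, so that shares are taken of totals that include the alpha satellite counts, the log2 changes were -0.22 for HSMAR1, -0.58 for HSMAR2, -0.64 for MADE1 and -0.54 for MADE2, and 0 were called (lowest edgeR adjusted p = 0.0503, for MADE1; 3 had an unadjusted p under 0.05). The median of all entries was then -0.61, and that of named repeats -0.42. The split of all calls moved too, to 28 higher and 1051 lower, against 159 and 250 with TMM factors, and was 104 and 343 with upper-quartile factors. Set against the median of named repeats in the same fit, HSMAR1 stayed above it and both MADE entries below it. A change of scaling factor moves entry and median almost alike, so agreement between the scaling settings was largely fixed in advance. HSMAR1 stood 0.20 above that median with TMM scaling. The range over all 16 settings tried was 0.14 to 0.27 above it, and both ends came from fits with 1 library left out. MADE1 differed from that median by -0.17 with TMM scaling and by -0.24 to -0.11 over all 16. MADE2 differed from it by -0.09 and was below it in all 16, while HSMAR2, at -0.06, was above it in 2 of 16.

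**Figure D4:**
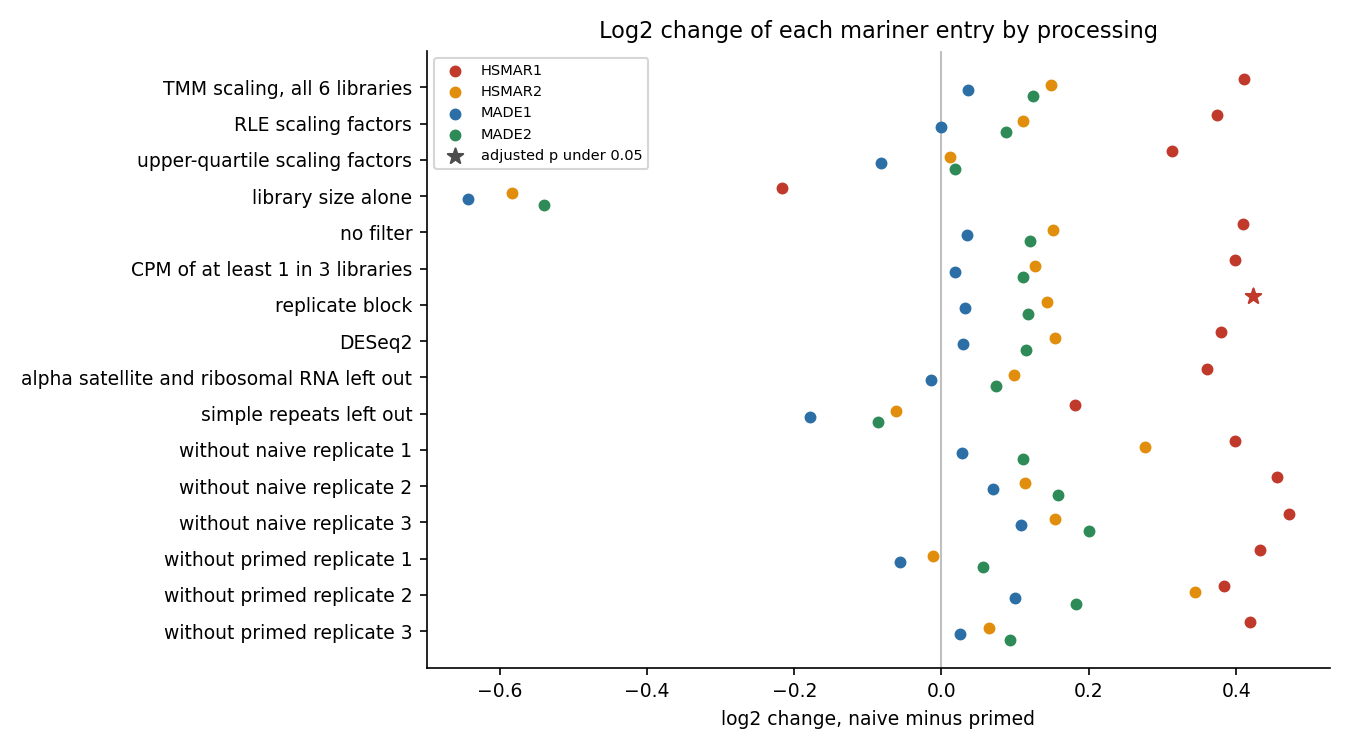
Log2 change, naive minus primed (x axis), of each mariner entry under the 16 settings (y axis), with TMM scaling of all 6 libraries at the top. The star marks an adjusted p under 0.05, reached once, by HSMAR1 in the fit with the replicate number as a block. HSMAR1 has the highest value in every setting.

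The entries nearest to each mariner element were found from log2 CPM profiles over the 6 libraries, each centred on its own mean, among 1160 other named repeats with a mean of at least 5 CPM. Likeness was the root mean square difference (RMS, log2 units), whose median over these repeats was between 0.25 and 0.31. HSMAR1 was nearest to L1M7 (RMS 0.07), an L1 family, then LTR8 and L1MEg (both 0.08). L1M7 itself was called, at a log2 change of 0.47 (edgeR adjusted p = 0.0317), and lost its call without primed library 1 (0.48, adjusted p = 0.169), naive library 2 (0.46, adjusted p = 0.122) or primed library 3 (0.48, adjusted p = 0.0611). It was also lost with upper-quartile factors (0.36, adjusted p = 0.0775), with no filter (0.47, adjusted p = 0.0664) and with simple repeats left out (0.24, adjusted p = 0.143). With library size alone it stood at -0.19 (adjusted p = 0.583). MADE1 was nearest to the hAT entries Charlie7a (0.02), MER112 (0.03) and Charlie1b (0.04), and MADE2 was number 7 on its list (0.05). MADE2 was nearest to X26_DNA (0.03), X4b_DNA (0.04) and L1MC4a (0.05), and MADE1 was number 5 on its list. HSMAR2 was nearest to HERV-Fc2-int, MER74A and LTR90A (each 0.06), which are retroviral entries. On the list of HSMAR1, its short derivative MADE1 was number 584, at 0.26, which is also the median distance on that list. These neighbours depended on the shallow primed library 2. Without it, an alternative chosen after seeing the data, 1 of the 12 nearest names was kept (Charlie1b, for MADE1). MADE1 was then number 299 on the list of HSMAR1, at 0.15, against a median of 0.20. MADE2 was then number 45 on the list of MADE1, and MADE1 number 30 on that of MADE2 (both 0.05).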

How the data were processed

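The authors deposited raw counts, whole numbers for each repeat name and library, which sum all genomic copies of a name. Trimmomatic 0.39, STAR 2.7.8a, featureCounts and Subread 2.14.2 are listed in the submitters' processing notes. No build, repeat annotation, strand setting or rule for reads with several best places is given in the sources used here. Whether reads passed between HSMAR1 and MADE1 copies of near-identical sequence is therefore not known and was not tested.

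Samples were grouped by the treatment label and columns matched by title. The main fit used edgeR 4.0.16 (R 4.3.3) on all entries: filterByExpr, TMM factors, and the quasi-likelihood test for naive minus primed, with p adjusted by Benjamini-Hochberg and a threshold of 0.05. SE is the log2 change divided by the square root of F. TMM factors were between 0.628 and 0.903 in naive and between 1.10 and 1.51 in primed libraries. Pairs were compared by an exact permutation test (scipy 1.17.1), and figures drawn with matplotlib 3.10.9. Intervals of log2 changes and folds come from the quasi-likelihood SE, which includes variation between libraries. Poisson, Wilson and exact ratio intervals cover counting error only, since reads are not independent molecules. No 2 libraries were identical, and replicates differed beyond sampling noise (chi-square per degree of freedom of at least 3.76).

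On simulated counts for this comparison (3122 entries tested, 200 changed), the fit called 50.5% of the 2-fold changes and 95.7% of the 4-fold ones, and 4.86% of its 144 calls fell on unchanged entries. Members, transposon lists (from element names), tests and naming rule were chosen with earlier results of these data known. The rule names all 4 members, the 3 nearest profiles to each, MARNA, and the called entry with the greatest change of each list in each direction. Kanga1a was named after its values were seen. Alternatives were DESeq2 1.42.0, scaling by RLE, by the upper quartile or by library size alone, 2 other filters, leaving out alpha satellite with ribosomal RNA or simple repeats, the replicate number as a block, each library left out, and 1 count added to ratios.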

Additional observations from a re-analysis of the deposited data

How the results depend on the processing

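Over all entries, 409 were called with TMM factors, 1079 with library size alone, 860 without a filter, 638 with the replicate number as a block, 208 with DESeq2 and 48 with simple repeats left out (31 higher and 17 lower). Leaving out 1 library gave between 15 (without primed library 1, 8 higher and 7 lower) and 651 calls (without naive library 1), with 178 without naive library 2.

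The log2 change of HSMAR1 was between 0.38 and 0.47 without any 1 library (edgeR adjusted p between 0.0574 and 0.241), 0.18 with simple repeats left out (adjusted p = 0.317) and -0.22 with library size alone. With the replicate block it was 0.42 and passed (adjusted p = 0.0361). Same-numbered libraries deviated together only weakly (correlations of 0.15, 0.09 and 0.07), too little to treat the numbers as pairs, although each library correlated best with its own number. Of the 194 listed DNA transposon entries, the block called 17 higher and 2 lower, against 6 and 0 without it. The block gave no call for the other 3 entries (0.14 for HSMAR2, 0.03 for MADE1 and 0.12 for MADE2).

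Signs turned for HSMAR2 with library size alone (-0.58) and without simple repeats (-0.062), and for MADE2 under the same settings (-0.54 and -0.086). MADE1 was at -0.000869 with RLE factors, -0.082 with upper-quartile factors, -0.64 with library size alone, -0.014 without alpha satellite and ribosomal RNA, and -0.18 without simple repeats. Leaving out 1 library gave -0.012 to 0.34 for HSMAR2, -0.057 to 0.11 for MADE1, and -0.056 to 0.18 for the log2 ratio of HSMAR2 to MADE2. The cause was not tested. The other 5 ratios kept their sign in each of 7 alternatives. The 228 mariner counts of primed library 2 limit what these comparisons can resolve.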
